A study of Mus musculus with 14 samples.

Results

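Interferon-stimulated genes are the genes that cells switch on when interferon, the signal of viral infection, binds its receptors. A set of 35 of them was followed through 14 libraries of primary mouse cells, out of 35449 genes with a row in the summed tables. The set was chosen by name, with earlier results of these data known. All 35 were found in the annotation. The cells were lines of mouse embryonic fibroblasts (MEFs), connective tissue cells grown from the body of E13.5 embryos after head and internal organs were taken off, and of neurospheres, floating cultures of neural stem and precursor cells grown from the heads. There were 5 KO MEF lines, 3 WT MEF lines, 3 KO neurosphere lines and 3 WT neurosphere lines, each an independent untreated line with 1 library. KO lines carried the targeted allele of H3f3a, a gene for the histone variant H3.3, which the series title calls knockout-first. The strain and the number of targeted copies are not stated, and WT lines are those labelled wild type. The labels give no treatment, so the levels are those of unstimulated cultures.

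In the interferon pathway, RNA sensors of the RIG-I family (encoded by Ddx58 and Ifih1) make an infected cell release type I interferon, which binds the receptor made from Ifnar1 and Ifnar2. The kinases Jak1 and Tyk2 then activate a complex that holds STAT2 and IRF9 and binds a DNA element called the interferon-stimulated response element (ISRE) in front of the target genes. Fibroblasts are a classic responder cell of this system and keep a low level of its products without infection.

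The target element itself could be read in front of several members. RefSeq promoters (GRCm38.p6, 250 bases before the annotated start) were listed for 27 of the 35 members, and the ISRE core, searched as GAAANNGAAA on both strands (TTTCNNTTTC when read from the other strand), was present for 8 of them (29.6%). It was present for 936 of 27025 genes with a listed promoter (3.46%). The 8 were Ifit1, Ifit3, Isg15, Stat2, Oas1a, Rsad2, Bst2 and B2m. A gene with more than 1 listed promoter counted if any held the element. Shown here are the 4 ISRE-holding promoters of members whose levels spread most between fibroblast lines. Ifi44, the member with the widest spread, had no core in its listed promoter, and Rtp4, also among the widest, had no listed promoter. The sequences are printed in the direction of the gene with the ISRE cores in capitals. Positions count back from the annotated start, where -1 is the last base printed.
Ifit1: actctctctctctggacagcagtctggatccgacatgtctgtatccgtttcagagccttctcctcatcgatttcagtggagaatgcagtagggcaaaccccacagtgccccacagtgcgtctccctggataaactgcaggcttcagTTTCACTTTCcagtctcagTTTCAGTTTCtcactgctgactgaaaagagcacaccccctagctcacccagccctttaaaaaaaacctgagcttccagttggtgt
Ifit3: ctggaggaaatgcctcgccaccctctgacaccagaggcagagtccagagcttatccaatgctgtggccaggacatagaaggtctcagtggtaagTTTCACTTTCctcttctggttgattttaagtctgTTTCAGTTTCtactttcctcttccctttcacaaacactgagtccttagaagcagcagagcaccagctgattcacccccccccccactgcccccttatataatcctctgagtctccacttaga
Isg15: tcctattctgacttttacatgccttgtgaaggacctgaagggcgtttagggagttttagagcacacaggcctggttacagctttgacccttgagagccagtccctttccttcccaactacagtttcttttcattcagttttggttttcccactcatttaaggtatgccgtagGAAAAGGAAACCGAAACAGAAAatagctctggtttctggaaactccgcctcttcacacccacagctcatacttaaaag
Bst2: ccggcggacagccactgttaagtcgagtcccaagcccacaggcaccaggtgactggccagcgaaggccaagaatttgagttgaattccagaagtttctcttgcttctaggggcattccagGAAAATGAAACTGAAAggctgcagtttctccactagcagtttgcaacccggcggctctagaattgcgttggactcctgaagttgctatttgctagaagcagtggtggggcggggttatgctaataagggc
The Ifit1 promoter lies at chr19:34640639-34640888 on the plus strand, with cores at -104 and -85. That of Ifit3 lies at chr19:34583279-34583528 on the plus strand, with cores at -156 and -122. The Isg15 promoter, at chr4:156200819-156201068 on the minus strand, holds 3 overlapping cores between -78 and -66, and the Bst2 promoter, at chr8:71537473-71537722 on the minus strand, holds 2 overlapping cores at -130 and -124. A match is a run of letters and says nothing about whether a factor was bound.

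Several members are neighbours on their chromosomes. Ifit2, Ifit3 and Ifit1 follow each other on chromosome 19. Rsad2 and Cmpk2 point away from each other on chromosome 12, 12751 bases apart. Dtx3l and Parp9 also point away from each other, on chromosome 16, with Parp14 beside them, and Psmb9, Tap1 and Psmb8 are clustered on chromosome 17.

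Total counts assigned to genes ran from 1669406 to 3296178 per library, so that 3 counts, the limit that a count of 0 allows, came to between 0.913 and 1.80 CPM (counts scaled to library size). The targeted gene followed the labels: H3f3a had 7.27 to 18.8 CPM in KO MEFs against 845 to 1420 CPM in WT MEFs, and 26.2 to 70.7 CPM in KO neurospheres against 1964 to 2409 CPM in WT neurospheres. Cell identity also followed the labels, with summed fibroblast markers at 67.1 to 196 CPM in neurospheres and 17760 to 26840 CPM in MEFs, and summed neural stem markers at 9300 to 15400 CPM in neurospheres and 330 to 534 CPM in MEFs. A fibroblast line, WT MEFs 2, was most often at an extreme: it held the highest CPM of the 8 MEF lines for 19.6% and the lowest for 20.9% of the 10785 genes tested. KO MEFs 3 came next, at 17% and 17.1%. Over these genes, the deviations of the 2 lines from their group means correlated at 0.747. Of 6 neural stem markers tested in MEFs, 3 were highest in WT MEFs 2. Among these was Sox2 at 47.6 CPM, while the other 7 MEF lines had between 0 and 10.7 CPM. Another of the 6, Nes, was lowest in WT MEFs 2, at 16.1 CPM beside 33.9 to 159 CPM in the other MEF lines. For the members, values without WT MEFs 2 are given where that line changed a direction or a call, or moved a called value by more than 1.5 times.

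Levels of the members differed widely, and some had hardly a count. B2m, which encodes the light chain of MHC class I molecules, was the most abundant member in every group, at 529 ± 116 CPM in KO MEFs, 786 ± 494 CPM in WT MEFs, 220 ± 24.9 CPM in KO neurospheres and 263 ± 40.2 CPM in WT neurospheres (SD over 5, 3, 3 and 3 lines). On the length-scaled TPM scale of the deposited files, B2m had 1050 ± 764 TPM in WT MEFs. Bst2 followed with 174 ± 199 TPM, then Lgals3bp with 122 ± 90.6 TPM and Isg15 with 116 ± 148 TPM. The spreads of these 3 in WT MEFs were as large as their differences, so their order is not resolved. Because the kit counts 3′ ends, reads do not grow with transcript length and TPM sets long transcripts too low. By CPM the order in WT MEFs was another: Samhd1 followed B2m at 108.5 ± 30.3 CPM, then Eif2ak2 at 59.25 ± 20.6 CPM and Bst2 at 53.8 ± 58.2 CPM.

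Counts were too few for any test in 11 of the 35 members: Ifit3, Irf7, Oasl2, Oas1a, Oas2, Mx1, Mx2, Usp18, Dhx58, Psmb8 and Psmb9. Oas2, a synthetase whose product activates RNase L, had 0 counts in all 14 libraries. Mx1, a GTPase that blocks influenza virus, had 1 count in total, and Oas1a, of the same family as Oas2, had 6. Dhx58, which tunes the RIG-I family sensors, had 18 counts, all in MEF lines, and Mx2, annotated as a polymorphic pseudogene, had 19. The immunoproteasome subunits Psmb9 and Psmb8 had 24 and 42 counts, the regulator Irf7 30 counts, the ISG15-removing protease Usp18 41 counts, and Oasl2, a synthetase-like protein, 60 counts. Irf7 was highest in WT MEFs 2, which held 14 of its 30 counts, as it did 14 of the 41 Usp18 counts and 25 of the 60 Oasl2 counts. Near-identical copies can share reads: adding Ifit3b took Ifit3 to 148 counts in all against 82 alone, adding Ifit1bl1 and Ifit1bl2 took Ifit1 to 199 against 172, and the Oas1 copies took Oas1a to 21 against 6. The 3′ ends of Irf7 and B2m overlap those of Phrf1 and Patl2 on the opposite strand, which matters only where reads were assigned without regard to strand, an option that is not given in the sources used here.

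**Figure D1:**
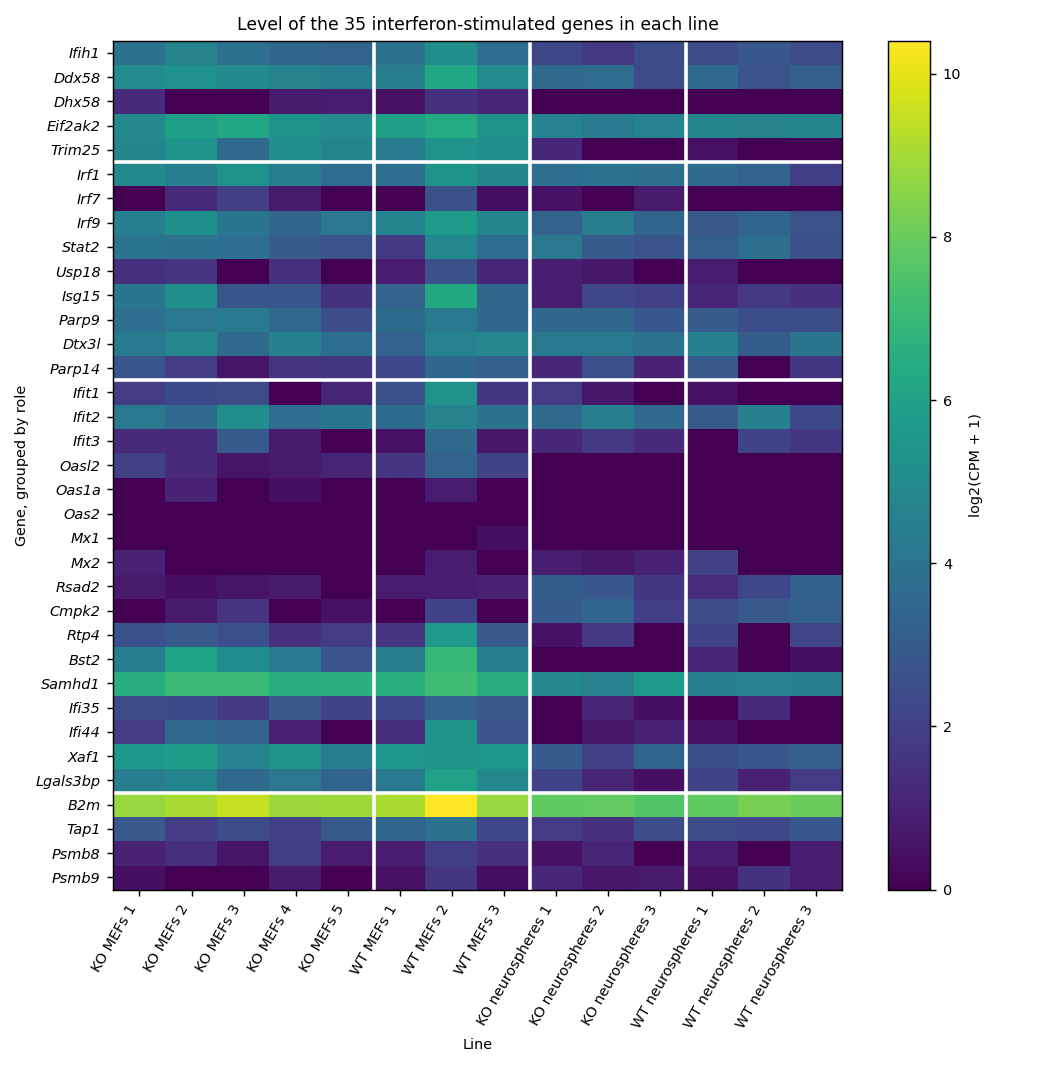
Heat map of log2(CPM + 1) for the 35 member genes (rows, grouped by role) in the 14 lines (columns, KO left of WT within each cell type). B2m was the brightest row in every line, Bst2 and Trim25 were dark in all 6 neurosphere lines, and Rsad2 and Cmpk2 were brighter in neurospheres than in most MEF lines.

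In KO against WT MEFs, the comparison that asks what loss of H3f3a does in fibroblasts, no member passed the test, and the lower reading of most members in KO was not seen once WT MEFs 2 was left out. Of the 22 members tested, 0 had an adjusted p under 0.05 in edgeR (0.00927% of 10785 genes did, which is 1 gene, H3f3a), and DESeq2 called 0 as well. The log2 difference was negative for 20 of 22 members, beside 50.2% of all genes tested, with a median of -0.56 and a range of -2.69 to 0.08, beside a median of -0.001 over all genes. Without WT MEFs 2 it was negative for 9 of 22 members, with a median of 0.06, beside 47.9% of all genes. An unadjusted p under 0.05 was reached by 4 members, Ifit1, Rtp4, Lgals3bp and Parp14, and by 1.62% of all genes. In no member were the KO and WT lines fully apart, a separation found in 1.84% of genes.

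The widest spread between fibroblast lines was seen among effector genes, the products that act on the virus. Ifi44, a cytoplasmic protein induced by interferon, had 2.76, 10.9, 8.71, 1.04 and 0 CPM in KO MEFs 1 to 5, against 1.58, 40.8 and 5.78 CPM in WT MEFs 1 to 3. Ifit1, which binds viral RNA that lacks the host cap methylation, had 2.76, 4.10, 4.36, 0 and 1.13 CPM in KO MEFs, against 5.15, 40.1 and 2.13 CPM in WT MEFs. Both genes were far higher in WT MEFs 2 than in any other line. The remaining WT lines lay within the KO range, except WT MEFs 1 for Ifit1, which was just above it. The Ifit1 difference was -2.69 on the log2 scale (SE 1.04, edgeR adjusted p = 1.00) and -0.55 without WT MEFs 2. Ifi44 differed by -1.79 (SE 1.17, edgeR adjusted p = 1.00), which turned to 0.30 without that line.

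Rtp4, a receptor transporter protein that restricts some RNA viruses, showed the same layout. It had 5.17, 6.50, 4.84, 1.73 and 2.64 CPM in KO MEFs, against 1.98, 47.6 and 6.39 CPM in WT MEFs. Bst2, or tetherin, which holds budding virus at the cell surface, had 21.0, 65.0, 31.95, 18.7 and 5.65 CPM in KO MEFs, against 19.4, 121 and 21.0 CPM in WT MEFs. WT MEFs 2 was the highest line for each, KO MEFs 2 was next for both, and the groups overlapped. The Rtp4 difference of -2.16 (SE 0.87, edgeR adjusted p = 1.00) shrank to -0.03 without WT MEFs 2, and that of Bst2, -0.93 (SE 0.82, edgeR adjusted p = 1.00), turned to 0.50. Ifit3, an IFIT1 partner too low for the test, had 1.38, 1.37, 6.78, 0.692 and 0 CPM in KO MEFs, against 0.396, 11.1 and 0.609 CPM in WT MEFs. WT MEFs 1 and 3 were thus below 4 of the 5 KO lines.

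Isg15, a ubiquitin-like protein that is joined to other proteins, had 16.2, 35.6, 5.81, 5.88 and 1.88 CPM in KO MEFs, against 8.71, 78.8 and 10.04 CPM in WT MEFs. The lines overlapped and WT MEFs 2 was again the highest, and the difference of -1.31 (SE 0.99, edgeR adjusted p = 1.00) turned to 0.49 without it. Lgals3bp, a secreted galectin-binding protein, had 21.0, 24.6, 11.1, 16.3 and 9.41 CPM in KO MEFs, against 17.4, 63.4 and 28.9 CPM in WT MEFs. Here WT MEFs 3 was also above every KO line, WT MEFs 1 was below KO MEFs 1 and 2, and the difference was -1.15 (SE 0.44, edgeR adjusted p = 1.00) with the line and -0.48 without it. Parp14, an ADP-ribosyltransferase, kept most of its difference. It had 5.86, 2.74, 0.484, 2.08 and 2.26 CPM in KO MEFs, against 3.96, 10.02 and 7.61 CPM in WT MEFs, with KO MEFs 1 the only KO line above a WT line. Its difference was -1.39 (SE 0.59, edgeR adjusted p = 1.00), and -1.07 without WT MEFs 2.

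**Figure D2:**
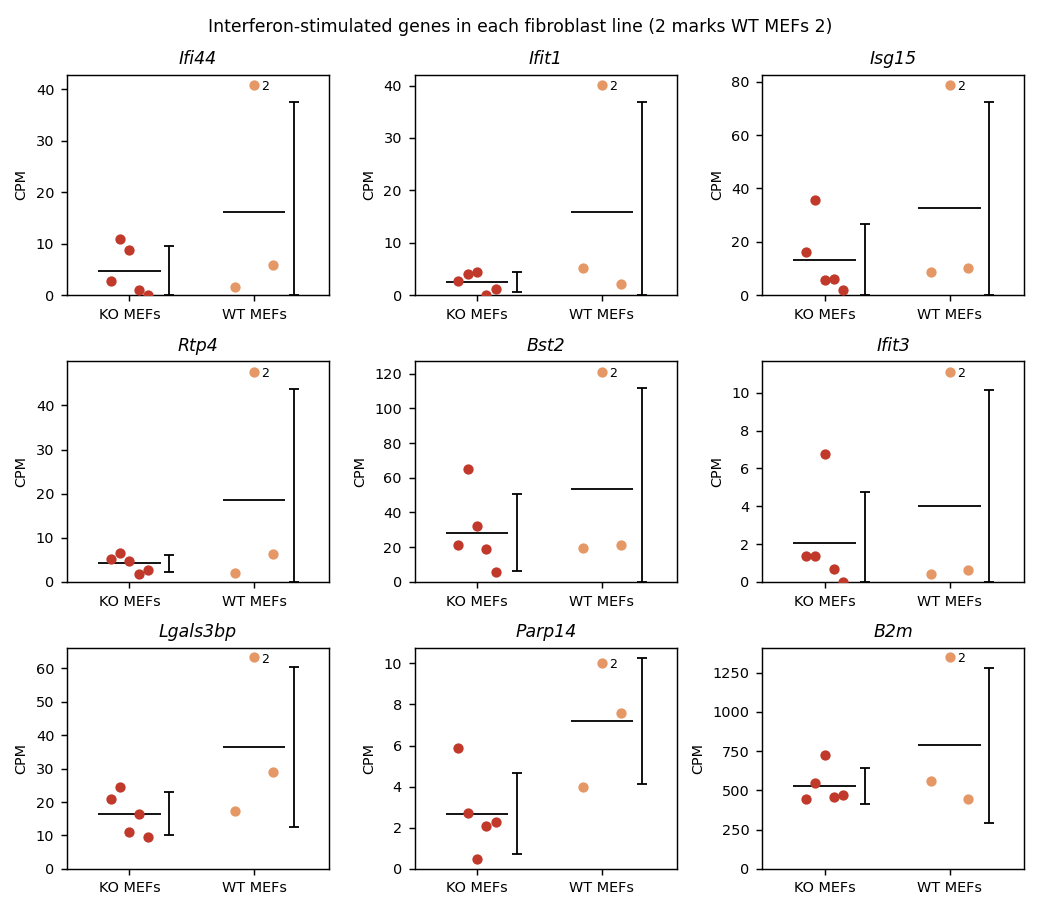
CPM of 9 members in the 5 KO MEF lines (left) and 3 WT MEF lines (right), 1 point per line, with the mean as a horizontal line and ± 1 SD as a bar that stops at 0. WT MEFs 2, marked 2, was the highest line in all 9 panels, at 40.8 CPM for Ifi44 and 1353 CPM for B2m.

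The other 15 tested members had differences between -0.96 and 0.08. Among the sensors, Ddx58 (RIG-I) differed by -0.53 between KO and WT MEFs, Ifih1 (MDA5) by -0.54, the RNA-activated kinase Eif2ak2 (PKR) by -0.39, and Trim25, the ubiquitin ligase that works with RIG-I, by -0.17, none of them called. Of the transcription factors, Irf9 differed by -0.72, Stat2 by -0.41 and Irf1, an activator that also answers type II interferon, by -0.13. Tap1, the peptide transporter of class I antigen presentation, differed by -0.96 and B2m by -0.58. Samhd1, which breaks down nucleotides needed by retroviruses, was at 0.04 and Ifit2 at 0.08, the only positive values of the 22, while Dtx3l was at -0.07, Parp9 at -0.12, Xaf1 at -0.20 and Ifi35 at -0.61. Without WT MEFs 2 the sign turned for Ddx58 (0.16), Ifih1 (0.05), Trim25 (0.05), Stat2 (0.52), Irf1 (0.34), B2m (0.08), Dtx3l (0.07) and Parp9 (0.22), while Eif2ak2 (-0.10), Irf9 (-0.31), Tap1 (-0.54), Xaf1 (-0.21) and Ifi35 (-0.32) kept theirs. None of these 15 reached an unadjusted p of 0.05, and their 95% intervals, which can be read from the plot of differences with and without WT MEFs 2, all included 0.

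**Figure D3:**
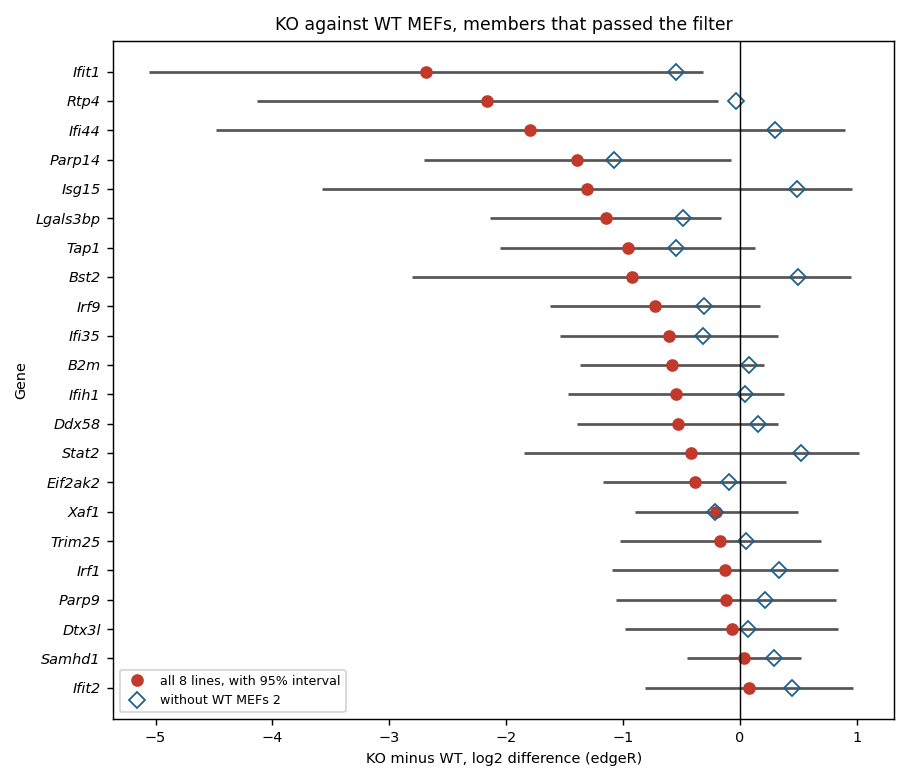
KO minus WT log2 difference in MEFs for the 22 members that passed the filter on low counts: red points with 95% intervals from all 8 lines, open blue diamonds from the fit without WT MEFs 2. The red points lay between -2.69 and 0.08, and without that line 13 of 22 diamonds were above 0.

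Counted over lines, WT MEFs 2 had the highest CPM for 18 of the 22 members (81.8%), beside 19.6% of all genes tested. The exceptions were Trim25, Xaf1 and Dtx3l, highest in KO MEFs 2 (3 of 22 members, beside 13.6% of all genes), and Ifit2, highest in KO MEFs 3 at 32.9 CPM (1 of 22, beside 17% of all genes). All 22 members were above their mean over the MEF lines in WT MEFs 2, by a median of 1.16 on the log2 scale. In the other 7 lines the median deviation lay between -0.64 (KO MEFs 5) and 0.29 (KO MEFs 2), and 1 of 22 members was above its mean in KO MEFs 5. KO MEFs 3, which varied with WT MEFs 2 over all genes tested, had a median deviation of -0.066, with 10 of 22 members above their mean. With every member that had at least 10 counts over the MEF lines taken in, 26 of 31 were highest in WT MEFs 2. Because this pattern was noticed in the data, it is given as a description with no test.

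Genes elsewhere in the pathway were mixed. H2-K1, a class I heavy chain that pairs with B2m, was 92.4 CPM in WT MEFs 2 and between 22.2 and 44.5 CPM in the other MEF lines. The receptor genes differed among themselves. Ifngr1, a chain of the type II receptor, was highest in WT MEFs 2 at 79.5 CPM, beside 37.2 to 68.7 CPM in the other MEF lines. Ifnar1 had 7.86 to 13.9 CPM in the KO lines, against 9.67 CPM in WT MEFs 2 and 18.2 and 19.5 CPM in the other WT lines. Of 15 receptor signalling genes tested, 7 (46.7%) were highest in WT MEFs 2, beside 19.6% of all genes. The 7 include Irf9 and Stat2, which are members and already counted among them. Interferons themselves, 10 genes of types I, II and III, summed to 0 CPM in every MEF line, which allows up to 3 counts per line.

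Other lists, also chosen with earlier results of these data known, moved in the same line. Of 30 further interferon-stimulated genes tested, 18 (60%) were highest in WT MEFs 2, beside 19.6% of all genes. With all lines 24 of 30 had a negative KO difference, beside 50.2% of all genes, and without WT MEFs 2 13 of 32 did, beside 47.9%. Of 13 macrophage and blood markers tested out of 18 listed, 11 (84.6%) were highest in WT MEFs 2. All 13 had negative KO differences, beside 50.2% of all genes, with a median of -1.13. Their summed level was 30.1 to 187 CPM in KO MEFs and 121 to 304 CPM in WT MEFs, and the red cell genes Hba-a1 and Hbb-bs were at 0 in every line. Without WT MEFs 2, 11 of 13 of these markers had a negative difference, with a median of -0.52, and 9 of 22 members had one, beside 47.9% of all genes. The part of such cells in the level of the members was not tested, and in bulk RNA fewer cells of a type cannot be told apart from less RNA per cell.

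The genes most like the members were sought over the 8 MEF lines, by the Pearson correlation of log2 CPM with the mean of the 22 members among 10763 other genes. The closest included Tyrobp (r = 0.964), Tubgcp5 (0.961), Ptprc (0.953), Adam22 (0.95), Mapk3 (0.943), Fam122b (0.938) and Phf2 (0.934). Tyrobp and Ptprc are leukocyte genes on the marker list: Tyrobp had 0.377 to 4.10 CPM in KO MEFs, against 1.98, 12.5 and 4.56 CPM in WT MEFs. All 7 of these genes were highest in WT MEFs 2, a point that the lines share and that bears on each of these correlations.

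**Figure D4:**
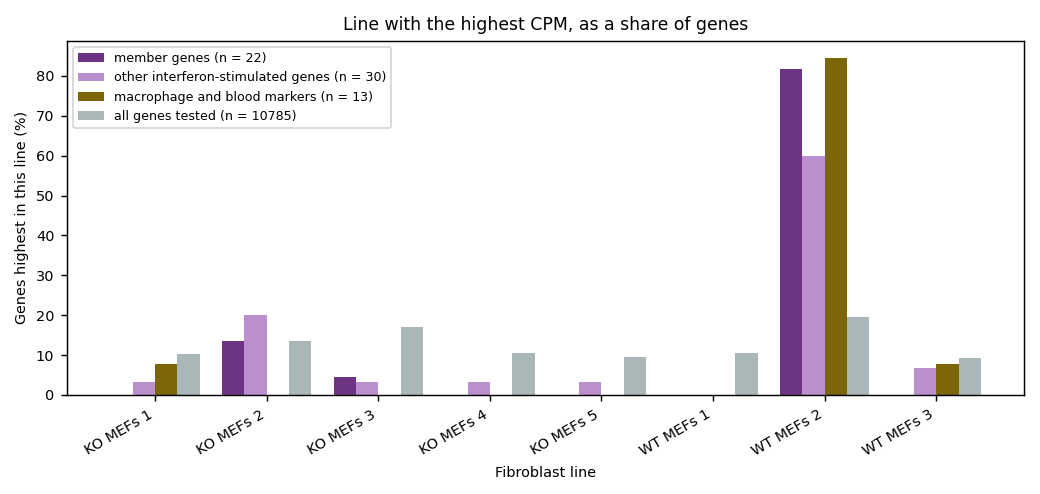
Share of genes with their highest CPM in each of the 8 MEF lines, for the 22 tested members, 30 other interferon-stimulated genes, 13 macrophage and blood markers and all 10785 genes tested. The bars of WT MEFs 2 reach 81.8%, 60% and 84.6% for the 3 lists, beside 19.6% for all genes.

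In KO against WT neurospheres, the same question asked of neural precursors, no member passed either. Of 15 members tested, 0 had an adjusted p under 0.05 in edgeR (0.00941% of 10624 genes did, again H3f3a alone), 0 were called by DESeq2, and 0 had an unadjusted p under 0.05, as 2.14% of all genes did. The log2 difference was negative for 4 of 15 members, beside 48.7% of all genes, with a median of 0.14. Lines of the genotypes were fully apart for 3 members, beside 7.20% of all genes: Irf1 and Samhd1 were higher in KO (3.34% of all genes) and Eif2ak2 was lower (3.86%).

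The smallest unadjusted p-values were those of Irf9 (0.0988), Samhd1 (0.107), Parp9 (0.126) and Irf1 (0.133) in edgeR, with adjusted p = 0.999 for each. Irf9, the DNA-binding partner of STAT2, had 9.06, 19.8 and 9.43 CPM in KO neurospheres, against 6.49, 9.31 and 5.32 CPM in WT neurospheres. Irf1 had 12.8, 14.4 and 13.3 CPM in KO neurospheres, against 11.5, 8.85 and 2.84 CPM in WT neurospheres. For Irf1 every KO line was above every WT line, while for Irf9 the highest WT line was just above the lowest KO line. Irf9 differed by 0.86 (SE 0.46) and Irf1 by 0.83 (SE 0.50). When each line was left out in turn, the Irf9 value ran from 0.41 (without KO neurospheres 2) to 1.11 and the Irf1 value from 0.41 (without WT neurospheres 3) to 1.22 (without WT neurospheres 1). Samhd1 had 28.4, 23.4 and 47.1 CPM in KO neurospheres, against 21.8, 23.3 and 21.98 CPM in WT neurospheres. Its KO lines began just above the highest WT line, and its difference of 0.59 (SE 0.33) was 0.21 without KO neurospheres 3. Parp9, which pairs with Dtx3l in ADP-ribosylation and ubiquitination of histones, had 10.3, 10.2 and 6.28 CPM in KO neurospheres, against 6.87, 4.66 and 4.61 CPM in WT neurospheres, where 1 WT line was above the lowest KO line. The difference was 0.73 (SE 0.43).

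Ifit2 and Rsad2 varied widely within each genotype. Ifit2, a relative of Ifit1 that helps to block viral translation, had 11.1, 21.6 and 10.8 CPM in KO neurospheres, against 6.87, 22.4 and 3.90 CPM in WT neurospheres. Rsad2 (viperin), which makes a nucleotide that ends viral RNA chains, had 7.41, 5.99 and 2.10 CPM in KO neurospheres, against 1.53, 3.73 and 8.51 CPM in WT neurospheres. Both genes overlapped between genotypes, with WT lines at both ends of the range. They differed by 0.41 (SE 0.65) and 0.14 (SE 0.73), both with an edgeR adjusted p = 0.999, and each turned negative when single lines were left out. Parp14 and Rtp4 were too low for the test. Parp14 had 1.24, 4.79 and 1.05 CPM in KO neurospheres, against 6.49, 0 and 2.13 CPM in WT neurospheres, and Rtp4 had 0.412, 2.40 and 0 CPM in KO neurospheres, against 3.44, 0 and 3.55 CPM in WT neurospheres. Both held lines at or near 0 in each genotype.

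No line of neurospheres carried the members as WT MEFs 2 did. The line most often highest was KO neurospheres 2, for 4 of 15 members (26.7%), beside 22.7% of all genes, and the median deviation of the members lay between -0.085 and 0.21 on the log2 scale in all 6 lines. Macrophage and blood markers summed to 0.599 to 2.88 CPM in KO neurospheres and 2.48 to 3.73 CPM in WT neurospheres. The 10 interferon genes summed to 0 CPM in KO neurospheres and to at most 0.466 CPM, a single count, in WT neurospheres. Genes most like the members over these 6 lines were Nudt13 (r = 0.986), Ccdc181 (0.981), Nicn1 (0.971), Rab5b (0.967), Prkdc (0.964), Adck1 (0.964), Mrm1 (0.955) and Chmp6 (0.952), of 10609 ranked. Rab5b, for example, had 134, 128 and 84.1 CPM in KO neurospheres, against 79.8, 87.6 and 70.2 CPM in WT neurospheres. Over only 6 lines, the highest of 10609 correlations can reach such values without any link between genes. The ranking is a description with no test.

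Whether the KO difference was unequal in neurospheres and MEFs was tested as an interaction over all 14 libraries. Of 24 members tested, 0 had an adjusted p under 0.05 in edgeR (0% of 12113 genes did) and 0 in DESeq2, and 2 had an unadjusted p under 0.05, as 3.02% of all genes did. These were Irf9, whose KO difference was 1.56 higher on the log2 scale in neurospheres than in MEFs (SE 0.63, edgeR adjusted p = 1.00), and Ifit1, at 5.25 (SE 2.25, edgeR adjusted p = 1.00). Ifit1 had 6, 1 and 0 counts in KO neurospheres and 1, 0 and 0 in WT neurospheres, too few for a test there, and entered the interaction through its MEF counts. Its value ran from 3.13 without WT MEFs 2, and 3.32 without KO neurospheres 1, to 7.15 without WT neurospheres 1. Without WT MEFs 2, Irf9 was at 1.16 and neither gene had an unadjusted p under 0.05. Samhd1 came next at 0.53 (SE 0.37), and at 0.17 without KO neurospheres 3. The interaction was negative for 1 of 24 members, with a median of 0.62, beside 49% of all genes, and without WT MEFs 2 it was negative for 11 of 24, with a median of 0.05. Like Ifit1, Isg15, Rtp4, Lgals3bp, Bst2, Ifi35, Ifi44, Parp14 and Trim25 were too low for the test within neurospheres. Rsad2 and Cmpk2 were too low within MEFs. For these members the sign rests mainly on 1 cell type.

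Between cell types, many members passed the test, all of them lower in neurospheres with all lines in the fit. In WT neurospheres against WT MEFs, 14 of 20 members tested were lower and 0 higher, beside 20.8% of all genes lower and 20.8% higher (41.6% called), with a median log2 difference of -1.91. Without WT MEFs 2, 11 of 20 were lower and 1, Cmpk2, was higher, beside 22.6% of all genes lower and 22.5% higher, and the median was -1.17. Irf1 and Parp9 then lost their call (edgeR adjusted p = 0.0982 and 0.0992), and Ifi35 was too low for the test. In KO neurospheres against KO MEFs, from other libraries, 10 of 19 were lower and 0 higher, beside 26.2% of genes lower and 25.4% higher (51.6% called), with a median of -1.65. The difference was negative for 19 of 19 members in KO lines and 19 of 20 in WT lines, beside 50.3% and 49.3% of all genes, and neurosphere and MEF lines were fully apart for 10 of 19 and 15 of 20 members, beside 49.7% and 57%. The 10, namely B2m, Bst2, Ddx58, Eif2ak2, Ifi35, Ifih1, Lgals3bp, Samhd1, Trim25 and Xaf1, were lower in both comparisons. They are 55.6% of the 18 members tested in both, beside 18.7% of 10859 genes. Bst2, Trim25, Ifi35, Lgals3bp and Isg15 were too low for the test within neurospheres and entered these fits through their MEF counts. So did Rtp4 in KO lines and Parp14 in WT lines. These members could only come out lower, and they are part of the counts above. Cmpk2 entered the WT fit through its neurosphere counts. Rsad2, with more counts in neurospheres, was too low for both fits. Irf1, Irf9, Isg15 and Parp9 passed in the WT lines and not in the KO lines, where Isg15 had an edgeR adjusted p = 0.0643 and Irf9 0.224. The interaction test, which compares the same 4 groups, called none of them. The lines were treated as independent in these fits, although MEF and neurosphere lines may in part come from the same embryos, which the labels do not state.

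Other measures moved with cell type. Macrophage and blood markers summed to 0.599 to 2.88 CPM in KO neurospheres and 30.1 to 187 CPM in KO MEFs, and to 2.48 to 3.73 CPM in WT neurospheres and 121 to 304 CPM in WT MEFs. Of the 18 listed, 4 of 4 tested in KO lines and 8 of 8 in WT lines were lower in neurospheres, with medians of -5.89 and -6.88, and these passed the filter on low counts through MEFs alone. Mitochondrial genes took 13.8% to 16.1% of counts in KO neurospheres and 5.27% to 5.77% in KO MEFs, and 12.9% to 16.8% in WT neurospheres and 5.63% to 6.15% in WT MEFs. The part of either in the cell type differences was not tested.

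The sensor genes and their partner Trim25 were lower in neurospheres. Trim25 had 1.24, 0 and 0 CPM in KO neurospheres, against 26.5, 40.3, 10.7, 32.9 and 25.2 CPM in KO MEFs, and 0.382, 0 and 0 CPM in WT neurospheres, against 19.0, 38.7 and 33.5 CPM in WT MEFs. It was close to absent in every neurosphere line and present in every fibroblast line, with log2 differences of -5.81 in KO lines (SE 0.80, edgeR adjusted p = 0.000289) and -7.40 in WT lines (SE 0.72, edgeR adjusted p = 0.00033). The fitted sizes rest on 3 counts in KO neurospheres 1 and 1 count in WT neurospheres 1, and were -9.13 and -9.37 with that line left out. Ifih1 had 3.71, 2.40 and 4.54 CPM in KO neurospheres, against 13.8, 23.9, 13.6, 10.04 and 9.04 CPM in KO MEFs, a difference of -1.92 (SE 0.44, edgeR adjusted p = 0.00459). WT lines had 4.20, 6.05 and 4.25 CPM in neurospheres, against 14.3, 34.0 and 13.1 CPM in MEFs, a difference of -2.05 (SE 0.48, edgeR adjusted p = 0.0114). The MEF lines were above the neurosphere lines without exception for both genes. Ddx58 had 11.1, 12.0 and 4.19 CPM in KO neurospheres, against 31.0, 37.3, 30.5, 23.9 and 20.3 CPM in KO MEFs, and 11.5, 5.59 and 7.80 CPM in WT neurospheres, against 20.2, 72.0 and 31.0 CPM in WT MEFs. Its lines did not overlap and it was lower by count (-1.65 in KO lines and -2.27 in WT lines, edgeR adjusted p = 0.00476 and 0.0119), but not called from TPM, where limma gave an adjusted p = 0.215 in KO lines and 0.521 in WT lines. Eif2ak2 was lower by -1.02 and -1.18 on the log2 scale in KO and WT lines (edgeR adjusted p = 0.0284 and 0.0160).

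Among effectors, Bst2 was the extreme. It had 0 counts in all 3 KO neurosphere lines, against 5.65 to 65.0 CPM in KO MEFs, which is at least 66.1-fold lower when 3 counts are allowed over the group. In WT neurospheres it had 1.15, 0 and 0.355 CPM, against 19.4, 121 and 21.0 CPM in WT MEFs, a log2 difference of -6.54 (SE 1.16, edgeR adjusted p = 0.00423). Isg15 had 1.15, 2.33 and 1.77 CPM in WT neurospheres, against 8.71, 78.8 and 10.04 CPM in WT MEFs, a difference of -4.17 on the log2 scale (SE 1.05, edgeR adjusted p = 0.0170) that shrank to -2.41 without WT MEFs 2 (edgeR adjusted p = 0.0102). In KO lines it differed by -2.37 and was not called. Lgals3bp, Xaf1, Samhd1 and Ifi35 were lower in both comparisons. Lgals3bp was at 1.61 ± 1.52 CPM in KO neurospheres and 16.5 ± 6.43 CPM in KO MEFs (SD, n = 3 and 5), and at 2.28 ± 1.26 CPM in WT neurospheres and 36.6 ± 23.9 CPM in WT MEFs (SD, n = 3 each). Xaf1, an adaptor linked to cell death, was at 6.36 ± 3.09 CPM in KO neurospheres and 37.0 ± 14.7 CPM in KO MEFs, and at 6.14 ± 1.61 CPM in WT neurospheres and 42.5 ± 1.20 CPM in WT MEFs. Samhd1 had log2 differences of -1.73 in KO lines (SE 0.27, edgeR adjusted p = 0.000619) and -2.26 in WT lines (SE 0.26, edgeR adjusted p = 0.000653). Ifi35, a scaffold protein of this response, was low throughout, at 0.516 ± 0.616 CPM in KO neurospheres against 4.12 ± 1.54 CPM in KO MEFs, and its differences were -3.07 and -3.79 in KO and WT lines (edgeR adjusted p = 0.00908 and 0.0175), the WT value reaching -7.16 without WT neurospheres 2. Oasl2 had no count in any neurosphere line. It was at least 3.145-fold lower in KO neurospheres than in KO MEFs, and at least 12.0-fold lower in WT neurospheres than in WT MEFs, or 6.74-fold without WT MEFs 2.

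Antigen presentation was split. B2m was lower in neurospheres, by -1.25 on the log2 scale in KO lines (SE 0.21, edgeR adjusted p = 0.000878) and -1.55 in WT lines (SE 0.43, edgeR adjusted p = 0.0222), which was -0.93 without WT MEFs 2 (edgeR adjusted p = 0.0108). Its heavy chains H2-K1 and H2-D1 were lower in WT neurospheres than in WT MEFs by -2.23 and -1.67 (edgeR adjusted p = 0.0298 and 0.0394), but neither was called without WT MEFs 2, at -1.53 and -0.95 (0.0564 and 0.0777). In KO lines they differed by -0.87 and -0.49 and were not called (edgeR adjusted p = 0.0971 and 0.268). Tap1 differed by -0.61 in KO lines and -0.90 in WT lines and was not called. Of the wider list of antigen presentation genes, 5 of 15 tested were lower and 0 higher in KO neurospheres, beside 26.2% of all genes lower and 25.4% higher. In WT neurospheres 7 of 14 were lower and 0 higher, beside 20.8% and 20.8%. The member B2m, already given above, is among the lower genes in both.

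A neighbouring pair ran the other way. Rsad2 had 18, 10 and 6 counts in KO neurospheres, against 2, 1, 1, 2 and 0 in KO MEFs, and 4, 8 and 24 counts in WT neurospheres, against 2, 2 and 3 in WT MEFs. Cmpk2, a mitochondrial nucleotide kinase that supplies viperin with its substrate, had 17, 16 and 8 counts in KO neurospheres, against 0, 2, 4, 0 and 1 in KO MEFs, and 11, 14 and 23 counts in WT neurospheres, against 0, 9 and 0 in WT MEFs. Every neurosphere line had more counts than every MEF line for Rsad2, and for Cmpk2 the lowest neurosphere line had 8 counts against 9 in WT MEFs 2. Cmpk2 differed by 2.55 between WT neurospheres and WT MEFs (SE 1.08, edgeR adjusted p = 0.0955), which did not pass. It passed without WT MEFs 2 (edgeR adjusted p = 0.00455), where both remaining WT MEF lines had 0 counts, so that the fitted size is not given. Rsad2 was too low for the cell type tests. Stat2, Ifit2 and the ubiquitin ligase gene Dtx3l stayed closer: their differences were -0.11, -0.29 and -0.17 in KO lines and -0.72, -0.60 and -0.36 in WT lines, none called, and Stat2 turned to 0.18 in WT lines without WT MEFs 2.

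Upstream genes of the pathway were called in both directions between cell types, and for receptor signalling genes the calls, 7 of 15 in KO lines and 6 of 14 in WT lines, were near the share of all genes, 51.6% and 41.6%. Of 14 receptor signalling genes tested in WT lines, 5 were lower in neurospheres (Irf9, Ifnar2, Ifngr2, Jak1 and Socs3) and 1 higher (Stat3, not called without WT MEFs 2, edgeR adjusted p = 0.0821), and in KO lines 4 of 15 were lower and 3 higher. Ifnar2, a chain of the type I receptor, was lower by -1.61 in KO lines and -1.17 in WT lines (edgeR adjusted p = 0.000741 and 0.00471). Of the sensing genes, 6 of 13 were lower and 1 higher in WT neurospheres, beside 20.8% of all genes lower and 20.8% higher. In KO neurospheres 6 of 13 were lower and 2 higher, beside 26.2% and 25.4%. The 6 lower in each comparison include the members Trim25, Ifih1 and Ddx58, already given above. The DNA sensor gene Cgas and Tmem173, which encodes its partner STING, were among those lower in both. They differed by -2.79 and -2.07 in KO lines and by -3.71 and -2.78 in WT lines. Cgas, Tmem173, Myd88 and Trim25 were too low for the test within neurospheres. They entered these fits through their MEF counts and could only come out lower. Tlr3, an endosomal RNA receptor, was higher in KO neurospheres by 3.82 (edgeR adjusted p = 0.000671). It was not called in WT lines at 1.65 (edgeR adjusted p = 0.136), but was called there without WT MEFs 2 at 3.15 (edgeR adjusted p = 0.00603). Tlr3 was too low for the test within MEFs and entered through its neurosphere counts. Among further interferon-stimulated genes, 6 of 23 were lower and 1 higher in WT neurospheres, beside 20.8% of all genes lower and 20.8% higher. In KO neurospheres 9 of 28 were lower and 1 higher, beside 26.2% and 25.4%. The shares lower were thus near those of all genes. Some genes of this list, Helz2 and Ifi204 among them, were too low for the test within neurospheres and entered these fits through their MEF counts.

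**Figure D5:**
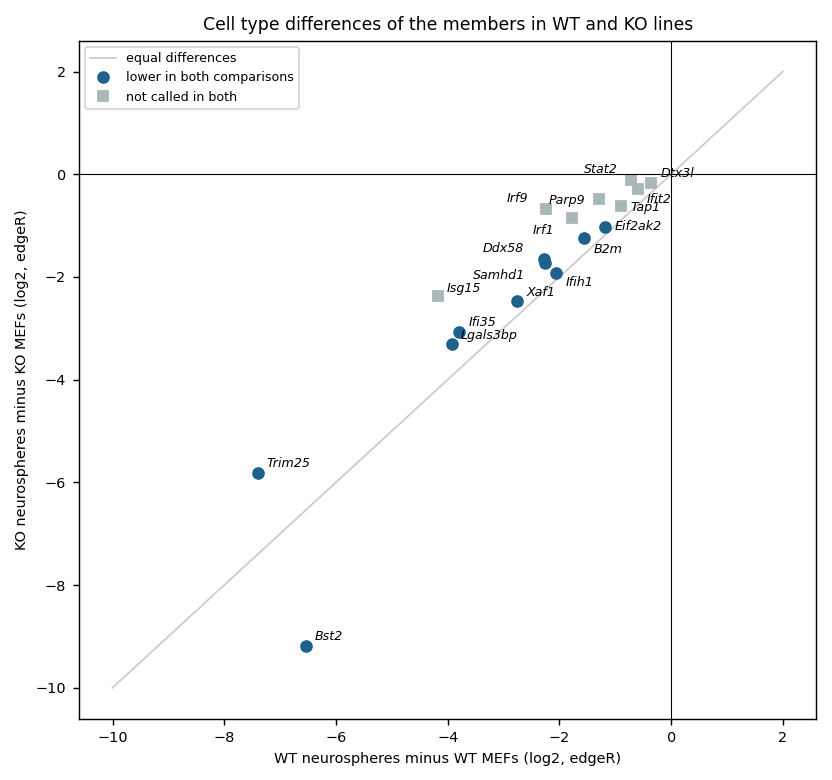
Log2 difference of neurospheres minus MEFs in WT lines (horizontal) and KO lines (vertical) for the 18 members tested in both comparisons, with the line of equal differences. All 18 points lay below 0 on both axes, and the 10 called lower in both (blue) reached from -1.02 for Eif2ak2 to -9.18 for Bst2 in KO lines, where the Bst2 value is a fit against libraries with 0 counts. Bst2, Trim25, Ifi35, Lgals3bp and Isg15 passed the filter on low counts through MEFs alone.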

How the data were processed

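RNA from 14 untreated lines was made into QuantSeq 3′ mRNA forward libraries, per the labels' protocols. The deposited files give expected counts per transcript and TPM, made by the authors with Salmon 1.1.0 per the submitters' processing notes, which also name edgeR. The transcripts indexed, their build and the strand setting were not given in the sources used here. Identifiers were matched to GENCODE M21 (GRCm38): of 116945 transcripts, 115560 matched in version and length, 385 by identifier, and 1000 (0.251% to 0.425% of reads) were left out. Expected counts were summed per gene and rounded.

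Every comparison had a fit of its own in edgeR 4.0.16 under R 4.3.3 (TMM, default filter by group with a minimum count of 10, robust quasi-likelihood test, Benjamini-Hochberg adjustment over all genes tested, threshold 0.05). Printed CPM use 1 TMM scaling over all 14 libraries, while log2 differences come from each fit. Members that passed only where they were high are not described as all members. Lines were not paired by number. Floors of 3 counts cover counting error only, and PCR copies cannot be told apart. Lines are called independent in the design text. Numbers shared between the names of MEF and neurosphere files leave it possible that some lines came from the same embryos, which the labels do not state, so no pairing was made from them.

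Members given line by line were the 6 with the widest range between lines and the 4 with the smallest p per cell type, and for the cell type comparisons the 8 called members with the largest difference. The other upstream and marker genes given with values were partly chosen after their values were seen. Members and lists were chosen with earlier results of these data known, and adjusted values over the list alone are not given for that reason. Alternatives were DESeq2 1.42.0, RLE size factors, no filter, a stricter filter (minimum count of 30), all libraries in 1 fit, limma 3.58.1 on log2(TPM + 1), a replicate block, near copies added, and lines left out. The tests were checked on simulated counts with changes put only into genes well above the count floor, so the check does not cover members with low counts. A gene of the pathway is not reported here.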

Additional observations from a re-analysis of the deposited data

Results flagged for a closer look

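Ifit2 in KO MEFs was set apart by a single line. It had 17.2, 11.3, 32.9, 12.5 and 15.4 CPM in KO MEFs 1 to 5, and the gap between KO MEFs 3 and the next line took up 0.726 of the whole range, above Dixon's 95% limit for 5 lines. This was 1 of 22 members looked at in that group, the only group large enough, and chance gives such a gap in about 1 in 20 groups. WT MEFs had 11.9, 24.3 and 14 CPM.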

How the results depend on the processing

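The count of members called in KO against WT MEFs, in KO against WT neurospheres and in the interaction was 0 under every alternative run, leaving out each line in turn included (lowest 0, highest 0). In WT neurospheres against WT MEFs it was 14, between 11 and 18 under the settings that kept all lines, and between 9 (without WT neurospheres 3) and 14 when each line was left out in turn. In KO neurospheres against KO MEFs it was 10, between 9 and 13 under the settings that kept all lines and between 8 and 12 when each line was left out. Members highest in WT MEFs 2 numbered 18 under RLE scaling and from TPM and 19 with no scaling factor, alternatives chosen after seeing the data. In KO against WT MEFs, leaving out each line in turn moved Ifi44 between -2.43 and 0.30, Isg15 between -2.12 and 0.49 and Bst2 between -1.49 and 0.50, lowest without KO MEFs 2 and positive without WT MEFs 2, and the sign turned with KO MEFs 3 also left out for Isg15 (0.67) and Bst2 (0.45). With both left out, 11 of 22 members were negative. In neurospheres it turned for Rsad2 without WT neurospheres 1 (-0.28) or KO neurospheres 1 (-0.22), over a range of -0.28 to 0.96, and for Ifit2 without WT neurospheres 3 (-0.016), over a range of -0.016 to 1.44, and the cause was not tested. Isg15 and Ifi35 lost their call in WT neurospheres against WT MEFs without WT neurospheres 1 (edgeR adjusted p = 0.0703 and 0.0686) or WT neurospheres 3 (0.0581 and 0.0617). With the replicate number as a block, the members called were 0 in both KO comparisons and in the interaction, 12 in WT neurospheres against WT MEFs and 9 in KO neurospheres against KO MEFs, where Ifi35 lost its call (edgeR adjusted p = 0.0883). Same-numbered KO and WT MEFs correlated at 0.03, -0.26 and -0.59 in their deviations from the group means. Same-numbered KO and WT neurospheres correlated at 0.12, -0.11 and 0.22. For same-numbered neurospheres and MEFs the values were 0.013, -0.042 and -0.076 in WT lines and -0.016, -0.085 and -0.083 in KO lines. With so few lines per group, these values cannot exclude that lines share an embryo. Across numbers, KO MEFs 3 and WT MEFs 2 correlated at 0.747, the highest of the KO and WT MEF pairs. Counts were too low for any test in 11 members, where shallow depth and low expression were not told apart.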
